A study of Mus musculus with 44 samples.

Results

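The receptors described here are the ones that place a B cell in lymphoid tissue and bone marrow. They are Cxcr4, Ackr3, Cxcr5, Ccr7, Ccr6, Ccr9, Ccr10, S1pr1, S1pr2 and Gpr183, and they were measured by every probe set of the mouse expression array that the platform annotation assigns to a single one of these symbols. That rule gave 16 probe sets for the 10 genes, of 45037 probe sets and 18193 singly annotated genes on the array. For 7 genes 1 probe set was found, Ccr9 had 5, and S1pr2 and Gpr183 had 2 each. The cells were CH12.LX, an established mouse B lymphoma line that secretes more IgM after activation. They were activated with lipopolysaccharide (LPS) from Salmonella typhosa and then received TCDD, the dioxin 2,3,7,8-tetrachlorodibenzo-p-dioxin and a potent ligand of the aryl hydrocarbon receptor, at 10 nM or were treated with the vehicle dimethyl sulfoxide (DMSO) at 0.01%, and were harvested after 8, 12, 24, 36 and 48 h. A further group is given as untreated and was harvested at 0 h, before any time in culture with LPS or vehicle. Each of the 11 groups had 4 arrays, and the 4 replicates were treated and harvested on separate days, so same-numbered replicates share a day. The cells are 1 line, so the spread between replicates is that between culture days and not between animals. The comparison of DMSO with untreated cells holds LPS, vehicle and time in culture together, and these cannot be told apart.

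Chemokine receptors and the receptors for sphingosine 1-phosphate and oxysterols couple to heterotrimeric G proteins and steer cells along gradients of their ligands. CXCR4 answers CXCL12 and holds B lineage cells and plasma cells in bone marrow, while ACKR3 binds CXCL12 and removes it without classical G protein signalling. CXCR5 draws B cells into follicles, CCR7 draws them to the T cell zone, and GPR183 (EBI2) guides activated B cells to the outer follicle. CCR6, CCR9 and CCR10 direct cells to mucosal and skin sites, S1PR1 lets lymphocytes leave lymphoid organs, and S1PR2 confines germinal centre B cells. Aryl hydrocarbon receptor bound to its partner ARNT recognises DNA elements with the core letters GCGTG.

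The promoter windows of the receptors that TCDD changed are shown because TCDD acts through a DNA-binding receptor. RefSeq windows (GRCm38.p6) run from 250 bases before to 50 bases after the annotated transcript start. Of the 10 genes, 6 matched an entry, Cxcr5, Ccr7, Ccr10 and S1pr1 being those without one, and Cxcr4, Ackr3, S1pr2 and Gpr183 are printed 5′ to 3′ on the strand of the gene, with GCGTG or its reverse complement CACGC in capitals. The windows are chr1:128592250-128592549 on the minus strand for Cxcr4, chr1:90203730-90204029 on the plus strand for Ackr3, chr9:20976744-20977043 on the minus strand for S1pr2 and chr14:121965144-121965443 on the minus strand for Gpr183.
Cxcr4: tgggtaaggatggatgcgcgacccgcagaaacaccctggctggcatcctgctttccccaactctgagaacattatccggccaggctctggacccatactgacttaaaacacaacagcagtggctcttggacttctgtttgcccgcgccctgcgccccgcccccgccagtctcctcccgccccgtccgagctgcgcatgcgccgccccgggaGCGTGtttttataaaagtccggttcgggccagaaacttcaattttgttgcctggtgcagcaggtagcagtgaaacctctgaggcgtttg
Ackr3: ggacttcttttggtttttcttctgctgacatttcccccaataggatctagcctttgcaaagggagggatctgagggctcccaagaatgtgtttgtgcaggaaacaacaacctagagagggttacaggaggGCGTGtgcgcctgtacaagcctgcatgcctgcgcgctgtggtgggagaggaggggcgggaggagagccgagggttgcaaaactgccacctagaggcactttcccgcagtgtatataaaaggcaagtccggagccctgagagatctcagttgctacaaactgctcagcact
S1pr2: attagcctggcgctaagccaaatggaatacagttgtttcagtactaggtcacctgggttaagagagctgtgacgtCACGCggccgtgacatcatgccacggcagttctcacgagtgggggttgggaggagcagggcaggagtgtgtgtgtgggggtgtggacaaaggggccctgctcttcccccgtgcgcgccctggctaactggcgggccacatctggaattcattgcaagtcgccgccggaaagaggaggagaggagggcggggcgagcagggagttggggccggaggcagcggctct
Gpr183: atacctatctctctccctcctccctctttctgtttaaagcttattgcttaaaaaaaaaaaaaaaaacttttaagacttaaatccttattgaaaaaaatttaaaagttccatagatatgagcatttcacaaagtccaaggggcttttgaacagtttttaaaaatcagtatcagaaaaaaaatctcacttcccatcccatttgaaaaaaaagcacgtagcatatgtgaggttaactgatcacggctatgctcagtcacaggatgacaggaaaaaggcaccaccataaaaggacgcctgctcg
The Cxcr4 window held 1 core, 39 bases before the start. The Ackr3 window held 1 core, 120 bases before the start, and the S1pr2 window held 1 on the opposite strand, 175 bases before the start. The Gpr183 window held none, and neither did the windows of Ccr6 and Ccr9. Both strands were searched, and 32.4% of all 32851 promoter windows of this length hold the core, so these matches are a description of the letters and not of binding.

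Levels are given as log2(signal + 16) after quantile normalization, and differences as differences of that level, which understate the change of a dim probe set. Levels of different probe sets are not set against each other. The main probe set of a gene is the one with the highest mean. A gene was tested where its highest group mean exceeded 6.21, the median of all values, and 11970 genes were. All 10 receptors were tested, but Ccr6 and Ccr9 only narrowly, with highest group means of 6.39 and 6.33. The median signal of an array lay between 45.0 and 98.9. Replicate arrays correlated at 0.949 to 0.980, and 4 arrays stood apart, in median signal or in the ratio of 3′ to 5′ probe sets of Tfrc. These were replicate 2 of DMSO cells at 48 h, replicate 4 of DMSO cells at 12 h, and untreated replicates 3 and 4. Cyp1a1, the standard target of the aryl hydrocarbon receptor, was higher under TCDD at all 5 times, by 4.50 to 6.01 log2. In DMSO cells Cyp1a1 differed from untreated cells by 2.15, 2.40, 0.10, -0.05 and 0.43 log2 at 8, 12, 24, 36 and 48 h. Only the 8 and 12 h differences passed the test at an adjusted p of 0.05. Of 7 B cell markers listed, 6 had a singly annotated probe set and all 6 were above the filter in some group, although Pax5 had group means of only 5.99 to 6.79.

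TCDD changed 7 of the 10 receptors when its difference from DMSO was averaged over the 5 times. Cxcr4, Ccr7, Gpr183 and Ackr3 were lower, with differences of -0.99 ± 0.068, -0.40 ± 0.044, -0.46 ± 0.084 and -0.32 ± 0.079 log2 (SE, 20 arrays of each treatment). Ccr10, S1pr2 and S1pr1 were higher, by 0.55 ± 0.11, 0.32 ± 0.086 and 0.26 ± 0.079 log2. The adjusted p-values (limma, Benjamini-Hochberg over all genes tested) were 3.01e-14 for Cxcr4, 4.83e-09 for Ccr7, 5.69e-05 for Gpr183, 0.00273 for Ackr3, 0.000234 for Ccr10, 0.00601 for S1pr2 and 0.0170 for S1pr1. Over all genes, 21% passed the same test, 11.1% higher and 9.86% lower. Cxcr5, Ccr6 and Ccr9 did not pass, with differences of -0.0048 (95% interval -0.12 to 0.11), -0.22 (-0.56 to 0.13) and 0.22 (-0.10 to 0.54). The call of Ackr3 was lost without replicate 1 (-0.21, adjusted p = 0.145), and that of S1pr1 without replicate 1 (0.22, adjusted p = 0.150) or replicate 2 (0.24, adjusted p = 0.125).

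At single times, 3, 4, 2, 2 and 3 of the 10 receptors passed at 8, 12, 24, 36 and 48 h, where 4.15, 9.21, 7.58, 5.89 and 8.85% of all genes did. Of these, 1, 2, 0, 0 and 1 were higher, against 2.75, 6.07, 4.8, 3.49 and 4.31% of all genes, and 2 were lower at each time, against 1.4, 3.14, 2.77, 2.4 and 4.54%. Cxcr4 was among them at every time, with Ccr7 and S1pr1 at 8 h, those 2 and S1pr2 at 12 h, Ackr3 at 24 h, Gpr183 at 36 h and Gpr183 and Ccr10 at 48 h. The arrays of the 2 treatments did not overlap for 4, 4, 2, 2 and 3 receptors, against 10.4, 13.3, 15.1, 12.4 and 11.7% of all genes. With the day as a block, 1004, 1950, 1625, 1307 and 1870 genes passed over the array, against 497, 1103, 907, 705 and 1059 without it. That fit lost none of the receptor calls and added the 4 named below for Ccr10 and Ccr7.

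**Figure D1:**
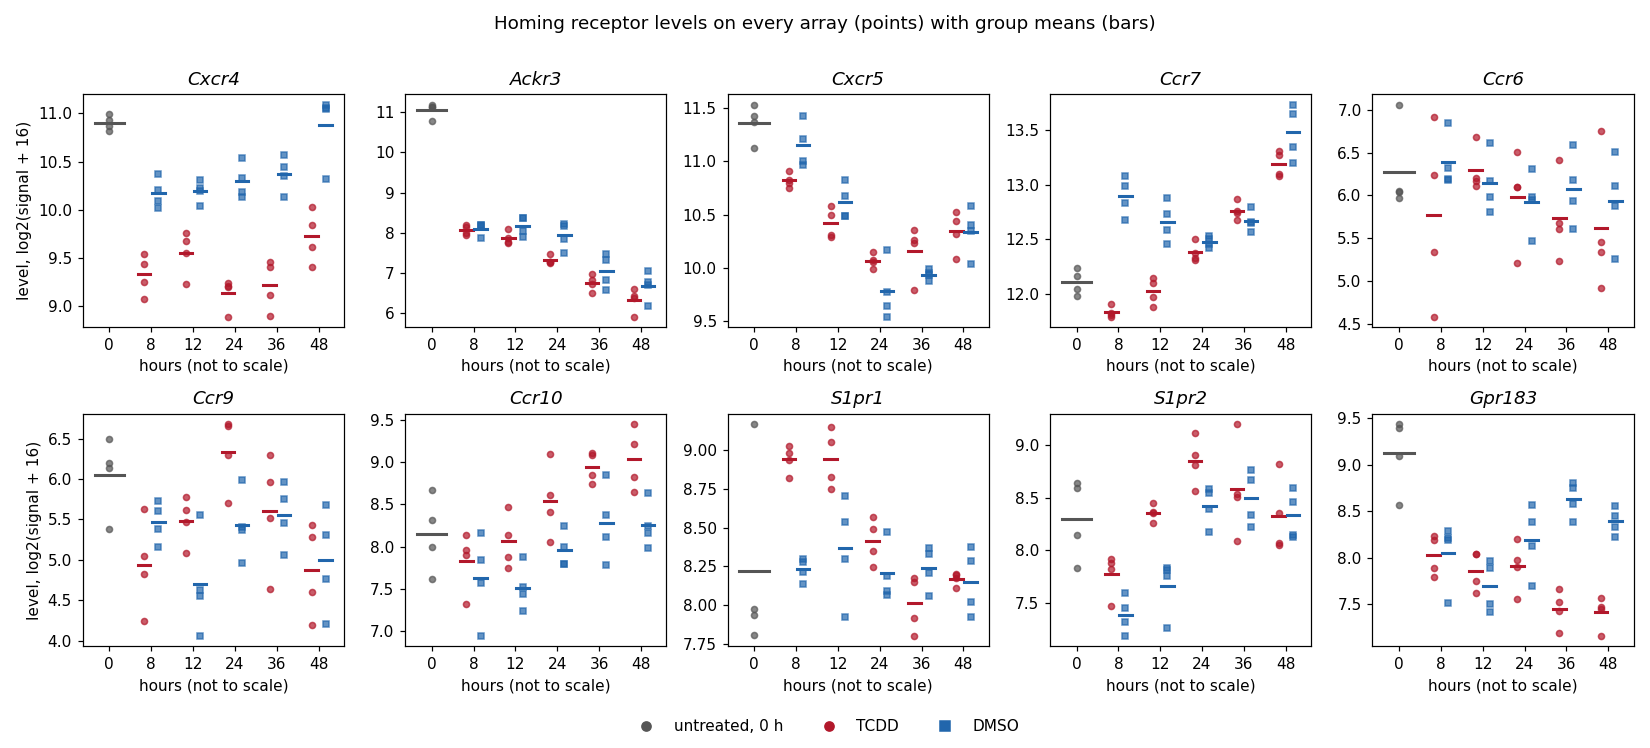
Level of each receptor, as log2(signal + 16), on all 44 arrays by hours of treatment, with TCDD (circles) left of DMSO (squares) at each time and untreated cells at 0 h. Short bars are group means of 4 arrays, and each panel has its own axis. The Cxcr4 groups do not overlap between the treatments at any time, and the Ackr3 means at 48 h are 6.34 in TCDD cells and 6.68 in DMSO cells, against 11.04 in untreated cells.

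Cxcr4 was the receptor with the most persistent TCDD difference. At 8 h its levels in TCDD cells were 9.25, 9.08, 9.54 and 9.44 (replicates 1 to 4), against 10.02, 10.09, 10.20 and 10.37 in DMSO cells. At 24 h they were 9.21, 8.89, 9.20 and 9.24 under TCDD, against 10.18, 10.32, 10.13 and 10.54 under DMSO. The 2 treatments did not overlap at either time, and the gap was wider at 24 h. At 48 h the TCDD arrays read 9.41, 9.62, 10.03 and 9.84, against 11.09, 10.32, 11.05 and 11.05 in DMSO cells, with DMSO replicate 2 well below the other DMSO arrays. At 12 h the levels spanned 9.23 to 9.76 under TCDD and 10.03 to 10.31 under DMSO, and at 36 h 8.89 to 9.45 and 10.13 to 10.57. The arrays of the 2 treatments were thus apart at all 5 times, and in each of the 20 same-day pairs the TCDD array was the lower, with differences of -1.68 to -0.36 log2.

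The Cxcr4 differences were -0.84, -0.64, -1.16, -1.16 and -1.15 log2 at 8, 12, 24, 36 and 48 h (SE 0.15 each), with adjusted p-values of 0.000289, 0.00450, 6.69e-07, 1.22e-06 and 1.21e-06. At the last 3 times this is 0.447, 0.448 and 0.449 times the DMSO value. The difference did not vary with time beyond the spread (F = 2.49, adjusted p = 0.309). Without the 4 arrays that stood apart, the 48 h difference was -1.34 log2. Of the 5 calls, only that at 12 h was lost under an alternative run, without replicate 4 (-0.63, adjusted p = 0.0505).

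In DMSO cells Cxcr4 was lower than in untreated cells from 8 to 36 h. The untreated arrays read 10.81, 10.998, 10.87 and 10.93. The differences were -0.73, -0.71, -0.61 and -0.53 log2 at 8, 12, 24 and 36 h (adjusted p = 0.000322, 0.000463, 0.00302 and 0.00646), and the difference at 48 h was -0.03 (95% interval -0.34 to 0.28). The 36 h call was lost without replicate 3 (-0.46, adjusted p = 0.0658). The group means of TCDD cells, 9.13 to 9.72, lay below those of all DMSO groups, 10.17 to 10.88, and of untreated cells, 10.90. Neighbouring groups in the order of levels overlapped in all 10 pairs, so the order within each treatment is not resolved array by array.

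Ackr3, the scavenging partner receptor for CXCL12, had the largest differences between DMSO and untreated cells among the 10 receptors at all 5 times. Untreated arrays read 11.12, 10.77, 11.11 and 11.17. DMSO arrays read 8.16, 7.86, 8.20 and 8.19 at 8 h and 7.05, 6.71, 6.19 and 6.77 at 48 h. DMSO arrays lay below all untreated arrays at both times, and most of the drop was present by 8 h. The differences were -2.94, -2.87, -3.11, -3.99 and -4.36 log2 at 8, 12, 24, 36 and 48 h (SE 0.18 each), the last with an adjusted p of 1.06e-20, which leaves 0.0486 times the untreated value. The untreated group and the group next below it (DMSO 12 h) did not overlap, and neither did TCDD 12 h and TCDD 24 h, the only 2 such neighbours of 10 for this gene.

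Under TCDD, the single time at which Ackr3 passed as lower was 24 h, where the arrays read 7.28, 7.48, 7.28 and 7.25 in TCDD cells, against 8.22, 8.17, 7.51 and 7.86 in DMSO cells. The groups did not overlap, though TCDD replicate 2 and DMSO replicate 3 nearly touched. The difference was -0.61 ± 0.18 log2 (adjusted p = 0.0230). It did not pass with only the arrays compared (adjusted p = 0.0654), nor without replicates 1, 2 or 4 (0.201, 0.129 and 0.138). At the other times the differences were -0.03, -0.29, -0.29 and -0.34, none of which passed. The 24 h difference was not shown to differ from these (F = 1.38, adjusted p = 0.655). The probe set of Ackr3 is of the class that can match several transcripts.

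Cxcr5, the follicle receptor, was lower in DMSO cells than in untreated cells from 12 h on. The untreated arrays read 11.13, 11.37, 11.53 and 11.42, and at 24 h the DMSO arrays read 10.17, 9.64, 9.78 and 9.55. All DMSO arrays at 24 h were below all untreated ones. The differences were -0.74, -1.58, -1.42 and -1.02 log2 at 12, 24, 36 and 48 h (SE 0.13, adjusted p between 4.49e-12 and 2.62e-05), and the 8 h difference of -0.21 did not pass (adjusted p = 0.259). The TCDD differences were -0.33, -0.20, 0.28, 0.22 and 0.0013 at 8, 12, 24, 36 and 48 h, and none passed, the lowest adjusted p being 0.175. The groups were apart at 8 h, with 10.75 to 10.91 in TCDD cells and 10.97 to 11.42 in DMSO cells. The change of sign with time did not pass either (F = 4.25, adjusted p = 0.0752), but did on the values as deposited (F = 5.14, adjusted p = 0.0380).

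Ccr7, the T zone receptor, was lower under TCDD at 8 and 12 h. At 8 h its arrays read 11.81, 11.83, 11.91 and 11.80 in TCDD cells, against 12.67, 12.83, 12.99 and 13.08 in DMSO cells. At 12 h they read 12.15, 11.89, 12.10 and 11.97 under TCDD, against 12.46, 12.59, 12.88 and 12.73 under DMSO. Both times the treatments were fully apart. The untreated arrays, at 11.99, 12.16, 12.24 and 12.05, lay between the 2 treatments at 8 h and overlapped the TCDD arrays at 12 h. The differences were -1.06 ± 0.098 log2 at 8 h (adjusted p = 1.05e-09) and -0.64 ± 0.098 at 12 h (adjusted p = 1.69e-05), then -0.09, 0.10 and -0.29 at 24, 36 and 48 h, of which the last had an adjusted p of 0.0600 and, with the replicate block, 0.0314. It also passed with a stricter filter (0.0443) and with an intensity trend in the variance model (0.0414).

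The dependence of the Ccr7 difference on time passed the test (F = 21.8, adjusted p = 2.24e-06), as it did for 6.98% of all genes. In DMSO cells Ccr7 was above untreated cells throughout, by 0.78, 0.55, 0.37, 0.56 and 1.37 log2 at 8, 12, 24, 36 and 48 h, with adjusted p-values of 8.52e-08, 3.85e-05, 0.00536, 2.56e-05 and 6.64e-14. The highest group was DMSO 48 h, at 13.19 to 13.72, and TCDD cells reached 13.08 to 13.31 at that time. TCDD 8 h was the lowest group of all 11. In the order of the 11 groups, the neighbours TCDD 24 h and untreated did not overlap, and the other 9 pairs of neighbours did.

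**Figure D2:**
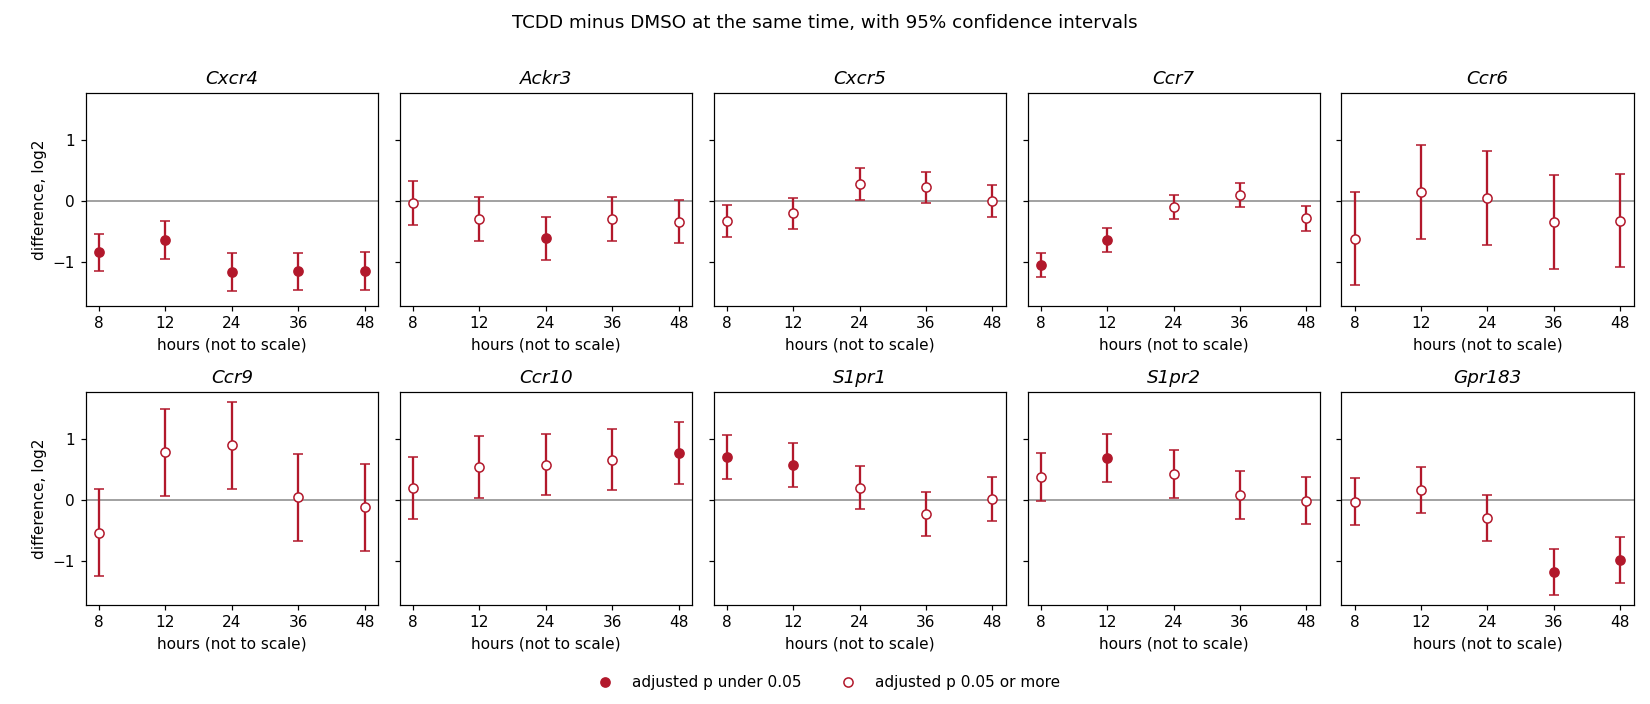
TCDD minus DMSO for each receptor, in log2, at 8, 12, 24, 36 and 48 h, with 95% confidence intervals from the fit of all 44 arrays (4 arrays a group). Filled points passed the test at an adjusted p of 0.05. The filled points below 0 include Cxcr4 at all times, Ccr7 at 8 and 12 h and Gpr183 at 36 and 48 h.

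Among the receptors of mucosal and skin homing, Ccr10 was the one above the filter in all groups. Its arrays read 8.65, 8.82, 9.21 and 9.45 in TCDD cells at 48 h, against 7.98, 8.25, 8.63 and 8.16 in DMSO cells. The groups did not overlap, though TCDD replicate 1 and DMSO replicate 3 nearly touched. The TCDD differences were 0.20, 0.54, 0.58, 0.67 and 0.78 log2 at 8, 12, 24, 36 and 48 h (SE 0.25 each). TCDD was the higher in 19 of 20 same-day pairs. Only the 48 h difference passed (adjusted p = 0.0435), and it did not pass under 6 alternatives other than leaving out a replicate, among them only the arrays compared (adjusted p = 0.0939) and the values as deposited (0.101), nor without replicates 2, 3 or 4 (0.212, 0.102 and 0.219). With the replicate block its SE was 0.15, and the 12, 24 and 36 h differences passed too (adjusted p = 0.0118, 0.00767 and 0.00282).

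No DMSO time differed from untreated cells for Ccr10 in the main fit. The untreated arrays spread from 7.62 to 8.67 and the DMSO groups from 6.95 to 8.85. With the replicate block, the differences of -0.52 at 8 h and -0.63 at 12 h passed (adjusted p = 0.00805 and 0.00143). The 12 h difference also passed with a stricter filter (0.0463) and without replicate 1 (0.0215). The lowest group was DMSO 12 h, with a mean of 7.52 ± 0.27 (SD, n = 4), and the highest was TCDD 48 h, with 9.03 ± 0.36.

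Ccr6 lay around the filter of 6.21 and Ccr9 mostly below it, with some arrays close to the lowest possible value of 4, so these data bound their changes only loosely. Ccr6 group means lay between 5.62 and 6.39, single arrays spread widely within a group (4.58 to 6.92 in TCDD cells at 8 h), and no comparison passed. Its TCDD differences had an SE of 0.38 and ran from -0.62 at 8 h to 0.15 at 12 h. The main probe set of Ccr9, of a class that can match other transcripts, had group means of 4.70 to 6.33. Only the mean of TCDD cells at 24 h exceeded the filter, so that group alone brought Ccr9 into the tests. Its TCDD differences were -0.53, 0.78, 0.90, 0.05 and -0.11 log2 (SE 0.35 each), and none passed. The 12 h difference passed without the 4 arrays that stood apart (1.07, adjusted p = 0.0415), and that at 24 h with a pseudocount of 64 (0.50, adjusted p = 0.0489). Against untreated cells, Ccr9 passed in DMSO cells at 12 h (-1.35, adjusted p = 0.00371) and at 48 h (-1.06, adjusted p = 0.0134), where DMSO arrays ranged from 4.06 to 5.55 and from 4.21 to 5.68, against 5.37 to 6.49 in untreated cells, so that the groups overlapped. In both comparisons the means of both groups lay below the filter, at 6.05 in untreated cells and 4.70 and 4.99 in DMSO cells. The 12 h call was lost without replicate 1 or 3, and the 48 h call without replicate 1, 2 or 3 or the 4 arrays that stood apart. The other 4 Ccr9 probe sets were below the filter in all groups and did not share 1 direction. Their means in untreated cells were 5.42, 5.27, 4.88 and 5.03. In DMSO cells they were 5.26, 5.57, 4.58 and 4.24 at 12 h and 5.02, 5.12, 4.32 and 4.50 at 48 h.

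S1pr1, the egress receptor, was higher under TCDD at 8 and 12 h. At 8 h its arrays read 8.98, 9.03, 8.82 and 8.93 in TCDD cells, against 8.21, 8.30, 8.14 and 8.28 in DMSO cells. At 12 h they read 8.75, 9.15, 8.83 and 9.05 under TCDD, against 8.30, 8.70, 8.54 and 7.93 under DMSO. The groups were apart both times, but barely at 12 h, where DMSO replicate 4, one of the arrays that stood apart in signal, was the lowest. The differences were 0.71 ± 0.18 log2 (adjusted p = 0.0125) and 0.58 ± 0.18 (adjusted p = 0.0324). At 24, 36 and 48 h they were 0.21, -0.23 and 0.02, and none passed.

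The 8 h call was lost without replicates 1, 2 or 3 (adjusted p = 0.107, 0.124 and 0.111, at differences of 0.69 to 0.72), and the 12 h call when any single replicate was left out (0.0807 to 0.131), without the filter (0.0541), or in a fit of the compared arrays alone (0.141). Without replicate 4 the 12 h difference was 0.40. The dependence on time (F = 4.77, adjusted p = 0.0498) was lost without replicates 1, 2 or 3 and under 4 other alternatives. No DMSO time differed from untreated cells, where replicate 4 read 9.16 and the other arrays 7.81, 7.97 and 7.93. Without the 4 arrays that stood apart, DMSO cells were 0.62 log2 above untreated cells at 12 h (adjusted p = 0.00121) and 0.35 at 36 h (0.0479), and without replicate 4 they were 0.61 above at 12 h (0.00159).

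S1pr2, the receptor of germinal centre confinement, was higher under TCDD at 12 h, with 8.36, 8.26, 8.45 and 8.35 in TCDD cells, against 7.81, 7.83, 7.75 and 7.26 in DMSO cells. The groups were apart, and DMSO replicate 4 was again the lowest array. The difference was 0.69 ± 0.19 log2 (adjusted p = 0.0159). It was 0.56 without the 4 arrays that stood apart (adjusted p = 0.0612), and the call was lost when any single replicate was left out (0.0524 to 0.0869). At 8, 24, 36 and 48 h the differences were 0.38, 0.43, 0.09 and -0.0064, and none passed. DMSO cells were below untreated cells at 8 h (-0.91, adjusted p = 0.000399) and at 12 h (-0.64, adjusted p = 0.0123), the 12 h call being lost without replicate 2 or 3, with only the arrays compared and without the 4 arrays, and no later time passed. In the fit of all probe sets, the second S1pr2 probe set, of a class that can match other transcripts, passed in no comparison (0.54 ± 0.42 under TCDD at 12 h), and its average TCDD difference was 0.06 ± 0.19, against 0.32 for the main one.

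Gpr183, the oxysterol receptor, was lower under TCDD late. At 36 h its arrays read 7.52, 7.19, 7.42 and 7.66 in TCDD cells, against 8.80, 8.58, 8.75 and 8.38 in DMSO cells. At 48 h they read 7.45, 7.47, 7.57 and 7.16 under TCDD, against 8.23, 8.33, 8.56 and 8.45 under DMSO. Both times every TCDD array was below the lowest DMSO array. The differences were -1.18 ± 0.19 log2 (adjusted p = 3.40e-05) and -0.98 ± 0.19 (adjusted p = 0.000405), 0.442 and 0.506 times the DMSO value. Under TCDD at 8, 12 and 24 h they were -0.02, 0.17 and -0.29, and none passed. The dependence on time passed (F = 10.0, adjusted p = 0.00106). Neither late call of the main probe set was lost under any alternative, all of which kept that probe set.

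In DMSO cells Gpr183 was lower than in untreated cells, whose arrays read 9.09, 8.56, 9.39 and 9.43. The DMSO differences were -1.07, -1.43, -0.93, -0.49 and -0.73 log2 at 8, 12, 24, 36 and 48 h, with adjusted p-values of 3.18e-05, 2.13e-07, 0.000305, 0.0423 and 0.00158. The lowest DMSO group was that at 12 h, at 7.42 to 7.97, and the level at 36 h was 8.38 to 8.80. The 36 h call was lost under 8 alternatives, and without the 4 arrays that stood apart the differences at 24, 36 and 48 h were -0.63, -0.20 and -0.42, none of which passed. The second Gpr183 probe set had TCDD differences of -0.36 ± 0.23 at 36 h and -0.60 ± 0.23 at 48 h in the fit of all probe sets, which did not pass (adjusted p = 0.554 and 0.117).

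**Figure D3:**
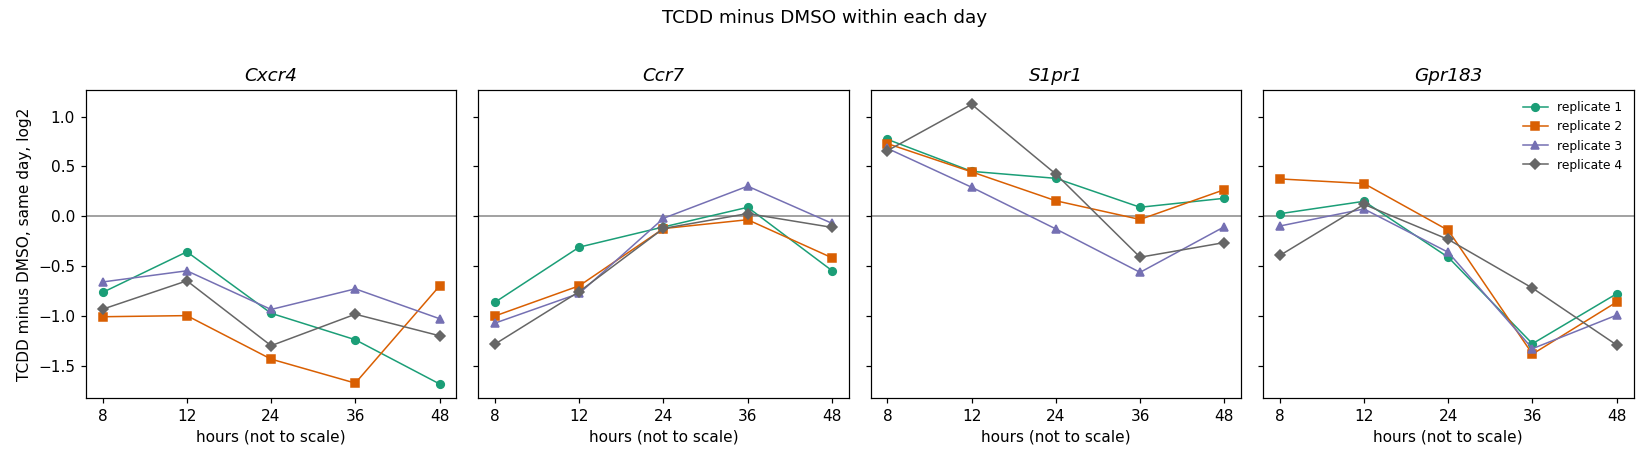
TCDD minus DMSO within each culture day, in log2, for Cxcr4, Ccr7, S1pr1 and Gpr183 at 8, 12, 24, 36 and 48 h. Each line is 1 replicate number, that is, 1 day. All 20 Cxcr4 differences are below 0, the Ccr7 lines lie between -1.28 and -0.86 at 8 h, and the Gpr183 lines between -1.38 and -0.72 at 36 h.

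Against untreated cells, 5, 7, 5, 5 and 5 of the 10 receptors passed in DMSO cells at 8, 12, 24, 36 and 48 h, where 24.6, 24.8, 19.7, 31.3 and 43.9% of all genes did. At each time Ccr7 was the 1 that was higher, where 11.2, 11, 9.39, 15.4 and 23.4% of all genes were, and 4, 6, 4, 4 and 4 were lower, against 13.4, 13.8, 10.3, 15.9 and 20.5%. At 48 h the share of receptors was near that of all genes. The counts at 12 and 48 h include Ccr9, whose group means in these comparisons lay below the filter. The arrays of the 2 groups did not overlap for 5, 6, 4, 4 and 4 receptors, against 20.8, 19, 18.9, 24.8 and 31.9% of all genes. The median difference of the 10 receptors was -0.55, -0.68, -0.48, -0.35 and -0.21 log2 at the 5 times, and that of all genes -0.02, -0.0085, -0.0092, 0.0072 and 0.02.

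**Figure D4:**
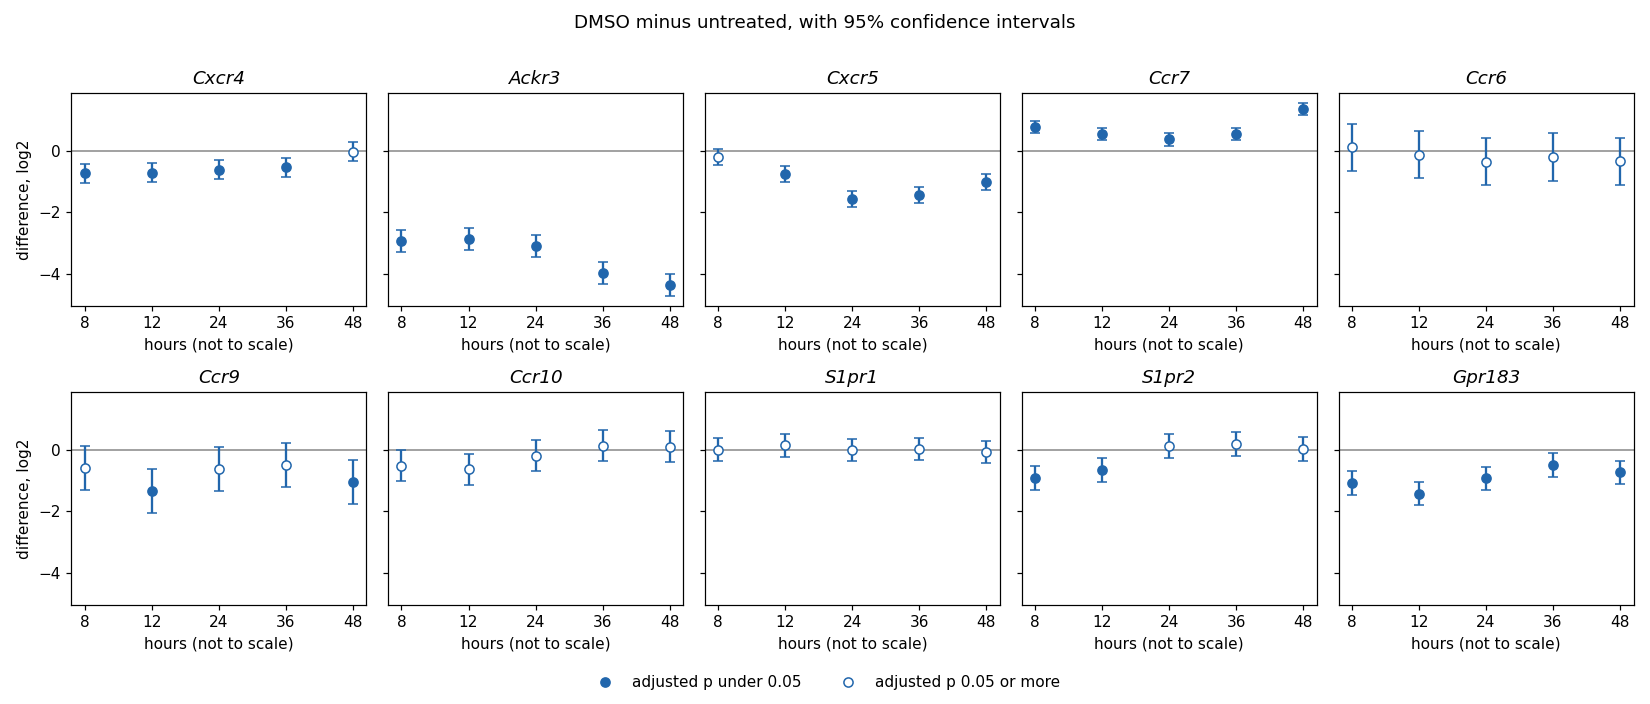
DMSO minus untreated for each receptor, in log2, at 8, 12, 24, 36 and 48 h, with 95% confidence intervals from the fit of all 44 arrays (4 arrays a group). Filled points passed the test at an adjusted p of 0.05. Ackr3 falls to -4.36, Cxcr5 is lowest at 24 h and Ccr7 is above 0 at all times.

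The receptors did not share 1 pattern across the 11 group means. By Pearson's r over these means, a description over groups that share days and normalization, Cxcr4 and Gpr183 were the most alike pair (0.73), followed by Ccr10 and S1pr2 (0.73) and Ackr3 and Cxcr5 (0.70). The most opposed pairs were Ccr7 and S1pr1 (-0.72), Cxcr5 and S1pr2 (-0.66) and Ccr6 and Ccr10 (-0.66). Outside the set, the genes with the most similar pattern were Pla2g12a for Cxcr4 (0.96), Bcl9 for Ackr3 (0.96), H2-Ab1 for Cxcr5 (0.97), Nprl3 for Ccr7 (0.94), Tm7sf2 for Ccr10 (0.98), Itgav for S1pr1 (0.96), Nsdhl for S1pr2 (0.94) and Rhox5 for Gpr183 (0.94). Each was picked as the highest r among the tested genes over only 11 means, so high values arise by selection. The group means of Rhox5 spanned only 0.29 log2, against 1.71 for Gpr183. Those of Nprl3 spanned 0.63, against 1.64 for Ccr7.

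Other chemokine and lipid receptors were listed beside these, and 14 of 29 were tested. Under TCDD, 2, 4, 4, 2 and 3 were higher at 8, 12, 24, 36 and 48 h, where 2.75, 6.07, 4.8, 3.49 and 4.31% of all genes were, and 1, 1, 0, 0 and 0 lower, where 1.4, 3.14, 2.77, 2.4 and 4.54% were. The list's median differences were -0.04, 0.09, 0.09, 0.25 and 0.10, against -0.0085, 0.01, -0.02, -0.0076 and -0.02 for all genes. Ccr1, an inflammatory chemokine receptor, was higher at all 5 times, by 1.01, 1.5, 1.15, 0.88 and 1.26 log2 (adjusted p between 2.32e-07 and 0.00137), with 7.56 ± 0.21 in TCDD cells and 6.55 ± 0.16 in DMSO cells at 8 h (SD, n = 4 each) and 8.55 ± 0.14 in untreated cells. Ackr2, a scavenger of inflammatory chemokines, was higher at 8, 12, 24 and 48 h, by 0.81 to 1.37, but its other probe set did not pass in any of these. The prostaglandin receptor Ptger4 was lower at 8 h (-0.54, adjusted p = 0.0288) and 12 h (-0.64, adjusted p = 0.00396), and its other probe set passed at neither time. The 8 h call was lost without replicate 1, 2 or 3, without the filter and in a fit of the compared arrays alone, which also lost the 12 h call. In DMSO cells, Cxcr3, a receptor of interferon-induced chemokines, was lower than in untreated cells, with a difference of -2.05 log2 at 8 h (adjusted p = 4.16e-10) and -2.51 at 48 h (adjusted p = 1.09e-12). Ccr4 was higher at 8 h, by 2.16 (adjusted p = 3.56e-06).

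Ligands of these receptors and enzymes that make or break them were listed too: of 20 listed and 11 tested, 0, 0, 2, 1 and 0 were higher and 0, 1, 0, 0 and 1 lower under TCDD at the 5 times, where 4.15, 9.21, 7.58, 5.89 and 8.85% of all genes passed in either direction. Sgpl1, the lyase that degrades sphingosine 1-phosphate, was lower at 48 h (-0.73, adjusted p = 0.00153), and its other probe set did not pass (-0.28). The call was lost without replicate 1 and in a fit of the compared arrays alone. Of 25 G proteins, receptor kinases, arrestins and RGS proteins tested, 0, 2, 0, 0 and 0 were higher and 0, 0, 1, 0 and 1 lower under TCDD, beside those shares of all genes in either direction. Against untreated cells, 11 of the 25 were lower in DMSO cells at 8 h and none higher, where 13.4% of all genes were lower and 11.2% higher, among them Rgs13 (-1.33, adjusted p = 0.00103) and Rgs2 (-1.32, adjusted p = 0.000388), which shorten G protein signalling. The Rgs13 call was lost in a fit of the compared arrays alone. Of 21 genes of the migration machinery tested, 2, 2, 2, 1 and 2 were higher under TCDD, where 2.75, 6.07, 4.8, 3.49 and 4.31% of all genes were, and 0, 0, 1, 1 and 1 lower, where 1.4, 3.14, 2.77, 2.4 and 4.54% were. Pik3cd, the catalytic PI3K subunit prominent in lymphocytes, was higher by 0.85, 0.98, 1.28, 1.12 and 0.83 log2 at the 5 times, while of its 4 other tested probe sets 1 passed at all 5 times and 2 at none. Its 8 h call was lost without replicate 2 and in a fit of the compared arrays alone.

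Adhesion molecules of homing went both ways under TCDD, with 2, 4, 3, 2 and 2 of 16 tested higher and 3, 3, 2, 3 and 2 lower, beside those same shares of all genes (2.75, 6.07, 4.8, 3.49 and 4.31% higher; 1.4, 3.14, 2.77, 2.4 and 4.54% lower). The integrin chain Itgax was lower at all 5 times, with differences of -0.74, -0.95, -1.03, -1.12 and -1.20 log2 (adjusted p = 0.00908 at 8 h and 1.03e-05 at 48 h), and Vcam1, the ligand of the integrin that contains Itga4, was lower at 8 h (-0.65), 12 h (-1.17) and 24 h (adjusted p = 3.69e-06), as were 1 of its other probe sets at all of these times and another at 24 h. The 8 h call of Itgax was lost without replicate 1 or 2, and that of Vcam1 without replicate 1. Of 19 tested regulators of homing receptor expression, 3, 3, 5, 4 and 4 were higher and 1, 2, 1, 4 and 4 lower under TCDD, beside the same shares of all genes. Cd69, whose protein draws S1PR1 off the cell surface, was higher at 8, 12 and 24 h by 0.94, 1.06 and 1.21 log2 (adjusted p = 1.44e-05, 1.03e-06 and 5.16e-08). The S1pr1 differences at these times were 0.71, 0.58 and 0.21 log2, the last of which did not pass.

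Markers of other cell types differed between treatments as well. The mean of all 6 myeloid markers was 7.65 to 7.83 in TCDD cells at 12 h, against 7.05 to 7.43 in DMSO cells. Of the 6, 4 were above the filter in some group, Csf1r, Adgre1, Cd68 and Cd14. Their highest group means were 10.64, 9.21, 10.67 and 6.62. Lyz2 and Itgam were below the filter in all groups. The mean of 3 fibroblast markers was 7.07 to 7.59 in TCDD cells at 8 h, against 6.08 to 6.48 in DMSO cells. Of the 3, Pdgfrb ranged most over the 11 group means, from 4.80 to 8.88, while Col1a1 lay between 5.63 and 6.64 and Col1a2 between 6.50 and 6.77. Of 7 plasma cell markers, 6 were above the filter, and the direction of the difference in their list mean changed with time. At 8 h the list mean was higher under TCDD, at 10.02 to 10.21, against 9.92 to 9.97 in DMSO cells. At 48 h it was lower, at 10.15 to 10.35 in TCDD cells, against 10.50 to 10.68 in DMSO cells. At the times in between the treatments overlapped. In untreated cells the list mean was 9.73 to 9.89. The B cell list mean lay between 9.39 and 10.11 in DMSO and TCDD cells, against 10.47 to 11.14 in untreated cells. Of 5 T cell markers on the array 3 passed the filter, Cd8a with group means of 8.62 to 9.38 and Cd4 and Cd3d below it, and 1 of 2 NK cell markers and 0 of 1 erythroid marker did. The part of these differences in the receptor results was not tested, and fewer cells that carry a receptor cannot be told apart from less RNA per cell.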

How the data were processed

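RNA of CH12.LX cells was hybridised to 44 1-colour Affymetrix Mouse 430 2.0 arrays, 4 in each of 11 groups. The deposited table holds the authors' processed intensity per probe set, which the submitters' processing notes credit to GCOS 1.0. Each array has a trimmed mean of 500, as the values show, and no further steps are given in the sources used here. The intensities were quantile normalized and converted to log2(signal + 16). Of 45037 probe sets without controls, 34945 have 1 gene symbol, 932 several and 9160 none. limma 3.58.1 in R 4.3.3 was fitted to all 44 arrays with 11 group means, 1 probe set per gene (highest mean), with Benjamini-Hochberg adjustment over 11970 genes and a threshold of 0.05. Same-numbered replicates share a day, per the series design, and 18 of 20 same-day pairs deviated together (r above 0.1). The number of arrays limits the precision. On simulated data for the 24 h comparison of TCDD with DMSO, 80% of 50 genes changed 2-fold were recovered and 4 unchanged genes were called. Of 50 genes changed 1.5-fold, 46% were recovered. The simulated noise was independent between arrays, without shared days, and few genes were changed, so these rates need not hold for the real data. Receptors were named whatever their values, and of each gene list up to 4 called genes by size of change could be named. The members, lists and tests were chosen with earlier results of these data known. Alternatives covered normalization, filter, pseudocount, arrays, days, the variance model and a fit of all probe sets. In each of them a gene was read from its main probe set.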

Additional observations from a re-analysis of the deposited data

Results flagged for a closer look

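In 10 of 110 groups of 4 arrays, 1 array lay far from the other 3, its gap to the nearest, as a share of the group's range, being above Dixon's 95% critical value. Chance flags about 5% of groups. In replicate 2, Cxcr4 was low in TCDD cells at 24 h (8.89, the nearest array being 9.20) and in DMSO cells at 48 h (10.32, nearest 11.05). In the same replicate Ackr3 was high in TCDD cells at 24 h (7.48, nearest 7.28), low in DMSO cells at 8 h (7.86, nearest 8.16) and low in untreated cells (10.77, nearest 11.11), and Gpr183 was low in DMSO cells at 8 h (7.51, nearest 8.19). In replicate 4, Ccr6 was high in TCDD cells at 12 h (6.69, nearest 6.20) and in untreated cells (7.06, nearest 6.05), S1pr1 was high in untreated cells (9.16, nearest 7.97), and S1pr2 was low in DMSO cells at 12 h (7.26, nearest 7.75). DMSO 48 h replicate 2 and untreated replicate 3 had the highest log2 ratios of 3′ to 5′ Tfrc probe sets (3.12 and 3.34), and untreated replicate 4 and DMSO 12 h replicate 4 the highest median signals (98.9 and 87.6).

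The TCDD difference varied between times, by the F test of the differences, for Ccr7, Gpr183 and S1pr1. Ccr7 (F = 21.8, adjusted p = 2.24e-06) was lower at 8 and 12 h, and Gpr183 (F = 10.0, adjusted p = 0.00106) at 36 and 48 h. S1pr1, higher at 8 and 12 h, passed only narrowly (F = 4.77, adjusted p = 0.0498). Its call was lost under 7 alternatives.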

How the results depend on the processing

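No receptor result changed direction while called, under any alternative run. The count of receptors called under TCDD at 12 h was 4, and 1 to 2 with a replicate left out. The share of all genes called fell as well, from 9.21% to between 4.17 and 7.4%. At 24 h it was 2, and 1 with only the arrays compared or with replicate 1, 2 or 4 left out (1 to 2). For DMSO against untreated cells the receptor count was 5 at 36 h, and 3 to 5 with a replicate left out. The share of all genes there was 31.3%, and 22.5 to 28.6% with a replicate left out. At 48 h the receptor count was 5, and 3 without the 4 arrays that stood apart, where the share of all genes went from 43.9 to 38.2%. Fewer arrays enter these fits. The Cxcr4 calls at 8, 24, 36 and 48 h, the Ccr7 calls at 8 and 12 h and the Gpr183 calls at 36 and 48 h were kept under all alternatives run. These runs kept the main probe set of each gene and do not bear on its choice. The second Gpr183 probe set did not pass at 36 or 48 h. The replicate block added 6 receptor calls and lost none: Ccr10 under TCDD at 12, 24 and 36 h (adjusted p = 0.0118, 0.00767 and 0.00282), Ccr10 in DMSO cells at 8 and 12 h (0.00805 and 0.00143) and Ccr7 under TCDD at 48 h (0.0314). Over all genes, 836 TCDD differences varied with time, and 1915 with the replicate block. With only the arrays compared, 312, 401, 670, 437 and 311 genes passed under TCDD at 8, 12, 24, 36 and 48 h, against 497, 1103, 907, 705 and 1059. The share of higher calls was 76.3% at 12 h and 73.9% at 24 h, against 65.9% and 63.4%. For DMSO against untreated cells 1518, 1310, 1214, 2063 and 3443 passed, against 2944, 2968, 2362, 3748 and 5255. With all 25237 probe sets tested these were 5242, 5394, 4225, 6504 and 9481 (20.8, 21.4, 16.7, 25.8 and 37.6%, against 24.6, 24.8, 19.7, 31.3 and 43.9% of genes), and the average TCDD difference passed for 3845 (15.2% of probe sets), against 2509 (21% of genes). Without replicate 2, the counts under TCDD were 237, 509, 474, 279 and 449. A dim probe set such as those of Ccr6 and Ccr9 limits what can be detected.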
